A study of Mus musculus with 30 samples.

Results

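Leptin (Lep), adiponectin (Adipoq) and resistin (Retn) were followed in 30 E0771 mammary tumors of obese, formerly obese and never-obese mice. The members were the probe sets annotated with these 3 symbols, with the brightest kept for each symbol, and 3 of the 19505 genes with a named probe set on the array were chosen this way. Each of the 3 genes had 1 probe set. RNA of each whole tumor was hybridized to 1 Clariom S array, a microarray of mouse genes, and the values are log2 expression, on which equal steps are equal folds. The question was whether obesity and 3 ways of losing weight changed the transcripts of the classical adipokines inside the tumor.

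All mice were female C57BL/6NCrl, 8 weeks old at purchase, and all carried tumors from injected cells of 1 mammary carcinoma line, E0771, so that every tumor is a graft of the same line in a different host. CON-LFD mice ate the control low-fat diet D12450J throughout and were never obese. The 4 other groups were made obese on a high-fat diet with 60% fat (D12492). DIO-HFD mice stayed on that diet, DIO-VSG mice underwent vertical sleeve gastrectomy and then ate the low-fat diet, DIO-CCR mice received 30% fewer calories than CON-LFD mice every day (chronic calorie restriction), and DIO-ICR mice were restricted intermittently, by 30% on average over a week. Surgery took place after 15 weeks on diet, and all mice that did not receive VSG had a sham operation. Cells were placed in mammary fat pad number 4 at week 25, within fat tissue of the host, and tumors were taken at the endpoint. Each group held 6 tumors from 6 mice.

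Adipokines are hormones that fat cells release into the blood. Leptin reports the size of the fat stores to the hypothalamus and acts through the receptor Lepr, the kinase Jak2 and the transcription factor Stat3. Adiponectin improves insulin sensitivity and fatty acid oxidation through Adipor1 and Adipor2, and its circulating level is lower in obesity, whereas that of leptin is higher. Resistin, which mouse white adipocytes make under control of the nuclear receptor Pparg, opposes insulin action in the liver; in humans it comes mainly from macrophages. In mice all 3 transcripts are made mainly by mature fat cells, the main cell of the fat pad in which these tumors grew.

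The bases just upstream of the start of each gene, from the RefSeq promoter windows of build GRCm38.p6, are shown as a description of the 3 genes. Each line runs 5′ to 3′ on the plus strand, which is the coding strand of all 3 genes, over the 120 bases that end just before the start of transcription. Lep lies at chr6:29060101-29060220, Adipoq at chr16:23146416-23146535 and Retn at chr8:3655650-3655769. Capitals mark matches on either strand to the motifs searched. 
Lep: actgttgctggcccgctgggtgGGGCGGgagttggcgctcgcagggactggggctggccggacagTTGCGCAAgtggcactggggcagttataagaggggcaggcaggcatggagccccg
Adipoq: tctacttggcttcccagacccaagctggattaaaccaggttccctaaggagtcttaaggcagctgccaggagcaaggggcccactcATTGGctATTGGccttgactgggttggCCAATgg
Retn: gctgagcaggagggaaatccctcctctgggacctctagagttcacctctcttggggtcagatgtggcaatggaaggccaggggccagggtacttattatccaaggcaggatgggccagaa
The 7 motifs were searched on both strands of windows of 300 bases. The Lep window held a C/EBP match, TTGCGCAA at -55 to -48 from the start (searched as TTGCNNAA, held by 10.8% of all 32851 windows), and a GC box, GGGCGG at -98 to -93 (35.7% of windows). The Adipoq window held 3 CCAAT boxes, at -34 and -27 on the minus strand and at -7 on the plus strand (CCAAT, 37.4% of windows). The Retn window held none of the 7 sets of letters, the 4 others being TATAAA (13.6%), AGGTCA (16.3%), a direct repeat of AGGTCA with 1 base between its copies (0.0396%), and CACGTG (7.15%). Over the 250 upstream bases, GC content was 65.6% for Lep, 48.8% for Adipoq and 54.8% for Retn, with a median of 52.4% over all windows. These are matches of letters and no evidence of binding, and their relation to the expression differences was not tested.

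The 30 arrays had medians between 6.41 and 6.79 and values between 1.48 and 18.57, no array pair was identical, and no value was missing. The tumors were not of uniform make-up. Lymph node genes stood over 1 above the median array in DIO-HFD 5, DIO-VSG 1 and DIO-VSG 5, and skeletal muscle genes did so in CON-LFD 5, DIO-VSG 3 and DIO-VSG 4, where a number after a group names a tumor. Of the epithelial markers of the labelled carcinoma, Krt8 had group means of 8.48 to 10.85, but Krt18 (4.05 to 4.86) and Epcam (4.61 to 5.53) lay low on the scale in every group. The files give no detection call, so that for values at the low end, such as those of Retn in CON-LFD and DIO-HFD tumors, true differences can be larger than measured.

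Over all tumors the 3 adipokines were among the most variable transcripts of the array. Retn had the largest SD over the 30 tumors of all 19505 genes (2.93), Adipoq the second largest (2.79) and Lep ranked 54 (1.56), where the median gene had an SD of 0.32. Retn ranged over 10.39 log2 units, Adipoq over 10.75 and Lep over 5.30.

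Retn separated the calorie-restricted groups from the obese and never-obese groups. In CON-LFD tumors Retn ran from 2.73 to 5.71 with a median of 5.0. In DIO-HFD tumors it ran from 3.45 to 5.74 (median 4.78). In DIO-VSG tumors it ran from 3.45 to 11.96 (median 5.12). The ranges of the CON-LFD and DIO-HFD groups thus overlapped, with the former reaching lower, whereas the DIO-VSG group was split, with 4 tumors between 3.45 and 5.58 and DIO-VSG 5 and DIO-VSG 1 at 9.54 and 11.96. In DIO-CCR tumors Retn ran from 7.21 to 13.12 (median 9.25) and in DIO-ICR tumors from 7.99 to 10.60 (median 10.27). Every restricted tumor lay above every CON-LFD and every DIO-HFD tumor. No tumor had a value between 5.74 and 7.21, the widest gap in the series for this gene, with 16 tumors below it and 14 above it.

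Group means of Retn were 4.63 ± 1.25 in CON-LFD, 4.68 ± 0.91 in DIO-HFD, 6.57 ± 3.40 in DIO-VSG, 9.48 ± 2.05 in DIO-CCR and 9.86 ± 1.00 in DIO-ICR (SD, n = 6 each). In a limma fit over all genes, Retn was 27.8-fold higher in DIO-CCR than in DIO-HFD tumors (log2 difference 4.80 ± 1.06 SE, adjusted p = 0.0432). It was 36.3-fold higher in DIO-ICR than in DIO-HFD tumors (5.18 ± 1.06, adjusted p = 0.0255). In both comparisons this was the largest difference of all 19505 genes. Against DIO-HFD, 0.354% of genes passed an adjusted p of 0.05 in DIO-CCR and 0.461% in DIO-ICR, and 0.431% and 0.543% of genes lay higher in every tumor of the restricted group. Both comparisons share the DIO-HFD tumors.

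The calls depended on single tumors. The DIO-CCR call against DIO-HFD was kept only when DIO-CCR 2 or DIO-CCR 6 was left out and was lost without any of the 10 other tumors (adjusted p = 0.0326 to 0.125, difference 4.07 to 5.25). The DIO-ICR call was lost without DIO-HFD 3, 4, 5 or 6 or DIO-ICR 1, 2 or 6 (adjusted p over all 12 fits 0.0146 to 0.0826, difference 4.94 to 5.56). A fit chosen after seeing the data left out the 2 tumors with the highest adipocyte marker score, DIO-VSG 1 and DIO-CCR 3. In it both calls held (4.07, adjusted p = 0.0201, in DIO-CCR and 5.18, adjusted p = 0.00223, in DIO-ICR). The number of all genes that passed in DIO-ICR was also larger in that fit.

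Against the never-obese CON-LFD tumors, Retn was 28.8-fold higher in DIO-CCR (4.85 ± 1.06, adjusted p = 0.0323, where 0.415% of genes passed and 0.502% lay higher in every tumor) and 37.7-fold higher in DIO-ICR (5.24 ± 1.06, adjusted p = 0.0135, where 1.57% of genes passed and 0.969% lay higher in every tumor). The DIO-ICR call held whichever of the 12 tumors was left out (adjusted p = 0.0152 to 0.0439). The DIO-CCR call was lost without CON-LFD 2, 3 or 5 or DIO-CCR 3, 4 or 5 (adjusted p = 0.0193 to 0.0884). With a score of white adipocyte markers in the fit, described further on, neither call held, with differences of 1.51 ± 0.52 in DIO-CCR (adjusted p = 0.299, where 0.0256% of genes passed) and 2.08 ± 0.51 in DIO-ICR (adjusted p = 0.0938, where 0.118% of genes passed).

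Retn did not differ detectably between DIO-HFD and CON-LFD tumors (-0.05 ± 1.06 for CON-LFD minus DIO-HFD, adjusted p = 0.995, 95% interval -2.22 to 2.12). The difference of 1.89 ± 1.06 between DIO-VSG and DIO-HFD did not pass (adjusted p = 0.557, where 0.154% of genes passed) and was 0.81 without DIO-VSG 1, 1.29 without DIO-VSG 5 and -0.04 without the 3 tumors with high lymph node genes, a set that includes both. The smaller set of tumors also changed the comparison with DIO-VSG itself. With all tumors Retn differed by 2.91 between DIO-CCR and DIO-VSG (adjusted p = 0.370, 0.0513% of genes passed) and by 3.29 between DIO-ICR and DIO-VSG (adjusted p = 0.337, 0.0308% of genes passed), whereas without those 3 tumors the differences were 5.0 (adjusted p = 0.0210) and 5.38 (adjusted p = 0.00502). That set leaves only the 4 DIO-VSG tumors with Retn between 3.45 and 5.58. The calls without it follow from leaving out the DIO-VSG tumors high in Retn and do not test DIO-VSG as a group. Between DIO-VSG and CON-LFD, where 0.0256% of genes passed, Retn differed by 1.94 (adjusted p = 0.587), Adipoq by 1.46 (0.766) and Lep by 0.87 (0.761). Between the restricted groups the Retn difference was 0.39 ± 1.06 (95% interval -1.79 to 2.56, adjusted p = 0.999). In that comparison limma called 0 genes (0%), and 928 genes, or 4.76%, had an unadjusted p under 0.05.

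**Figure D1:**
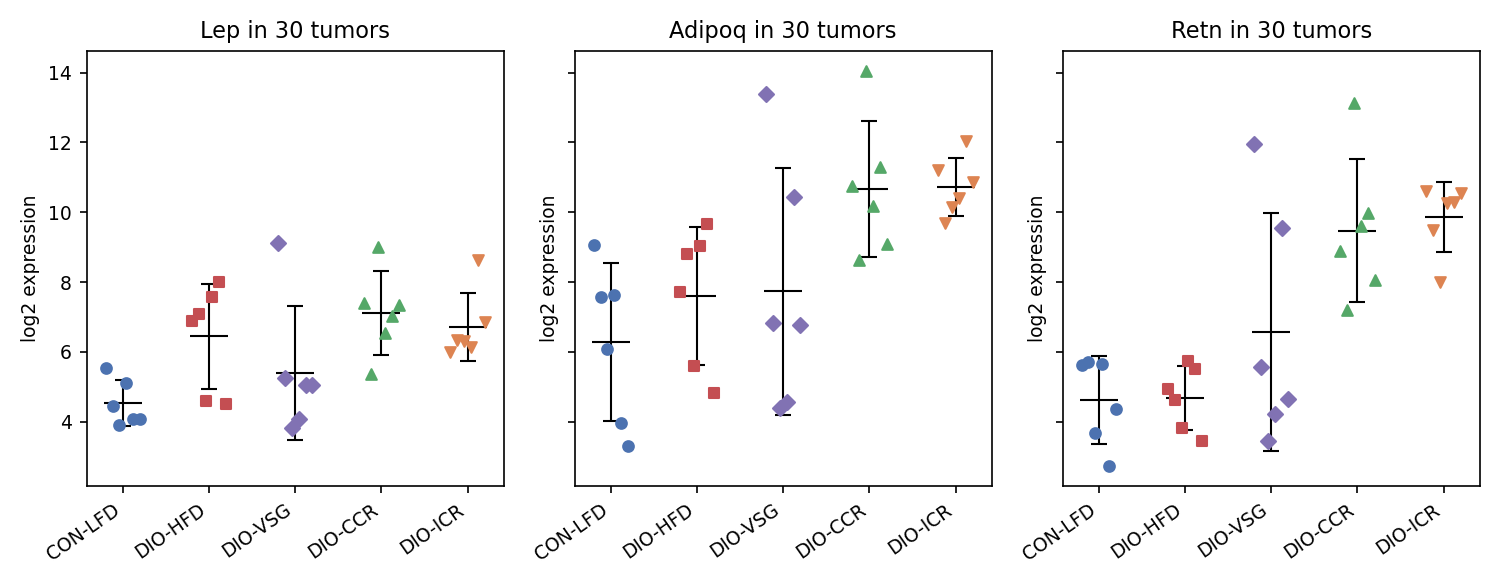
Log2 expression of Lep, Adipoq and Retn in each of the 30 tumors, by group, with 1 point per tumor; the horizontal bar is the group mean and the whiskers are 1 SD (n = 6). Retn of DIO-CCR and DIO-ICR tumors starts at 7.21, above the highest DIO-HFD tumor at 5.74, while Lep of the same groups overlaps DIO-HFD, and DIO-VSG 1 is the highest DIO-VSG tumor in all 3 panels.

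Adipoq had the same order of group means as Retn, with more overlap, but not the same order of medians. It ran from 3.31 to 9.07 in CON-LFD (median 6.84), from 4.83 to 9.66 in DIO-HFD (median 8.25) and from 4.40 to 13.40 in DIO-VSG tumors (median 6.81). In DIO-CCR tumors it ran from 8.64 to 14.06 (median 10.46), and in DIO-ICR tumors from 9.68 to 12.05 (median 10.64). All DIO-ICR tumors thus lay above all DIO-HFD and CON-LFD tumors, the closest pair being 9.68 and 9.66, and DIO-CCR overlapped both of the latter groups. Of all genes, 0.543% lay higher in every DIO-ICR than in every DIO-HFD tumor, and 0.969% did so against CON-LFD.

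The group means of Adipoq were 6.27 ± 2.26 in CON-LFD, 7.61 ± 1.97 in DIO-HFD, 7.73 ± 3.53 in DIO-VSG, 10.67 ± 1.94 in DIO-CCR and 10.73 ± 0.84 in DIO-ICR (SD, n = 6 each). Relative to DIO-HFD, the value was 8.36-fold higher in DIO-CCR (3.06 ± 1.23, adjusted p = 0.287, higher in 32 of 36 pairs of tumors) and 8.69-fold higher in DIO-ICR (3.12 ± 1.23, adjusted p = 0.329), and neither passed over all genes. By size these differences ranked 9 and 11 among all genes. Relative to CON-LFD the differences were 4.40 ± 1.23 in DIO-CCR (adjusted p = 0.113) and 4.45 ± 1.23 in DIO-ICR (adjusted p = 0.0613). The latter passed in 1 of the fits that left out 1 tumor, without CON-LFD 1 (adjusted p = 0.0381), and under 6 of 12 other alternatives. Among these were the fits without the 3 lymph node tumors (adjusted p = 0.0126) and with array weights (adjusted p = 0.0344), and the exact permutation test, which was unadjusted. Against DIO-VSG Adipoq differed by 2.94 in DIO-CCR (adjusted p = 0.451) and 2.99 in DIO-ICR (adjusted p = 0.512), and DIO-ICR differed from DIO-CCR by 0.06 ± 1.23 (95% interval -2.47 to 2.58). Adipoq differed by -1.33 ± 1.23 between CON-LFD and DIO-HFD (adjusted p = 0.760) and by 0.13 ± 1.23 between DIO-VSG and DIO-HFD (adjusted p = 0.980, and -1.01 without DIO-VSG 1).

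Lep did not follow that order of group means. It ran from 3.91 to 5.54 in CON-LFD (median 4.27), from 4.52 to 8.0 in DIO-HFD (median 6.98) and from 3.81 to 9.11 in DIO-VSG tumors (median 5.05). It ran from 5.36 to 9.01 in DIO-CCR (median 7.19) and from 6.01 to 8.63 in DIO-ICR tumors (median 6.33). The DIO-HFD tumors were split into 4 with values from 6.88 to 8.0 and 2, DIO-HFD 3 and DIO-HFD 6, at 4.59 and 4.52, and they covered most of the range of both restricted groups. Those 2 tumors were also the lowest of their group in Adipoq and Retn.

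Group means of Lep were 4.53 ± 0.66 in CON-LFD, 5.39 ± 1.91 in DIO-VSG, 6.44 ± 1.51 in DIO-HFD, 6.71 ± 0.98 in DIO-ICR and 7.12 ± 1.19 in DIO-CCR (SD, n = 6 each). The difference between CON-LFD and DIO-HFD was -1.91 ± 0.72 (adjusted p = 0.227, where 0.995% of genes passed). Relative to DIO-HFD the difference was 0.67 ± 0.72 in DIO-CCR (95% interval -0.80 to 2.15, adjusted p = 0.787), 0.27 ± 0.72 in DIO-ICR (-1.20 to 1.74, adjusted p = 0.948) and -1.05 ± 0.72 in DIO-VSG (adjusted p = 0.643). All DIO-ICR tumors lay above all CON-LFD tumors, as was so for 0.969% of genes (2.18 ± 0.72, adjusted p = 0.124). The DIO-CCR difference from CON-LFD was 2.59 ± 0.72 (adjusted p = 0.107). Against DIO-VSG the differences of Lep were 1.72 in DIO-CCR (adjusted p = 0.447) and 1.32 in DIO-ICR (adjusted p = 0.669). Between the restricted groups the difference of Lep was -0.40 ± 0.72 (95% interval -1.88 to 1.07). For all 3 adipokines, neighbors in the order of the 5 group means differed by less than the larger of their SDs.

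Across the 5 groups together, the F-test of limma gave an adjusted p of 0.00724 for Retn, 0.0871 for Adipoq and 0.135 for Lep, where 1.64% of all genes passed.

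Bulk tumor RNA does not tell fewer fat cells from less adipokine RNA per fat cell, so the other markers of white adipocytes were read beside the members. Of 20 symbols listed, 17 were measured, and Tusc5 is an older symbol of the listed Trarg1. None passed against DIO-HFD in any group, where 0.154% to 0.995% of all genes passed. In DIO-CCR all 17 had a positive difference from DIO-HFD (median 1.30, from 0.40 to 3.44) and in DIO-ICR all 17 did (median 1.11, from 0.16 to 3.36), while over all genes 9044 and 8621 of 19505 did and the medians were -0.018 and -0.027. In CON-LFD 3 of 17 were positive (median -0.32), and in DIO-VSG 14 of 17 (median 0.30). Car3, the carbonic anhydrase of adipocytes, had group means of 8.04 in CON-LFD, 9.66 in DIO-HFD, 10.98 in DIO-VSG, 12.88 in DIO-CCR and 12.96 in DIO-ICR, and was the marker with the smallest F-test p (adjusted p = 0.0214). Gpd1 (F-test adjusted p = 0.0780), Thrsp (0.0967) and the lipid droplet protein gene Cidec (0.102) came next.

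The mean of the 17 markers, each taken relative to its median over the arrays, served as an adipocyte score. It ran from -1.40 to 0.17 in CON-LFD, from -1.44 to 0.29 in DIO-HFD, from -1.13 to 2.73 in DIO-VSG, from -0.10 to 3.52 in DIO-CCR and from 0.09 to 1.87 in DIO-ICR. DIO-VSG 1 and DIO-CCR 3, the highest tumors of the series in Adipoq and Retn, were also the highest in the score, at 2.73 and 3.52. Per unit of score Adipoq increased by 2.02 ± 0.18, Retn by 1.76 ± 0.15 and Lep by 1.11 ± 0.13 (SE, slopes within groups).

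**Figure D2:**
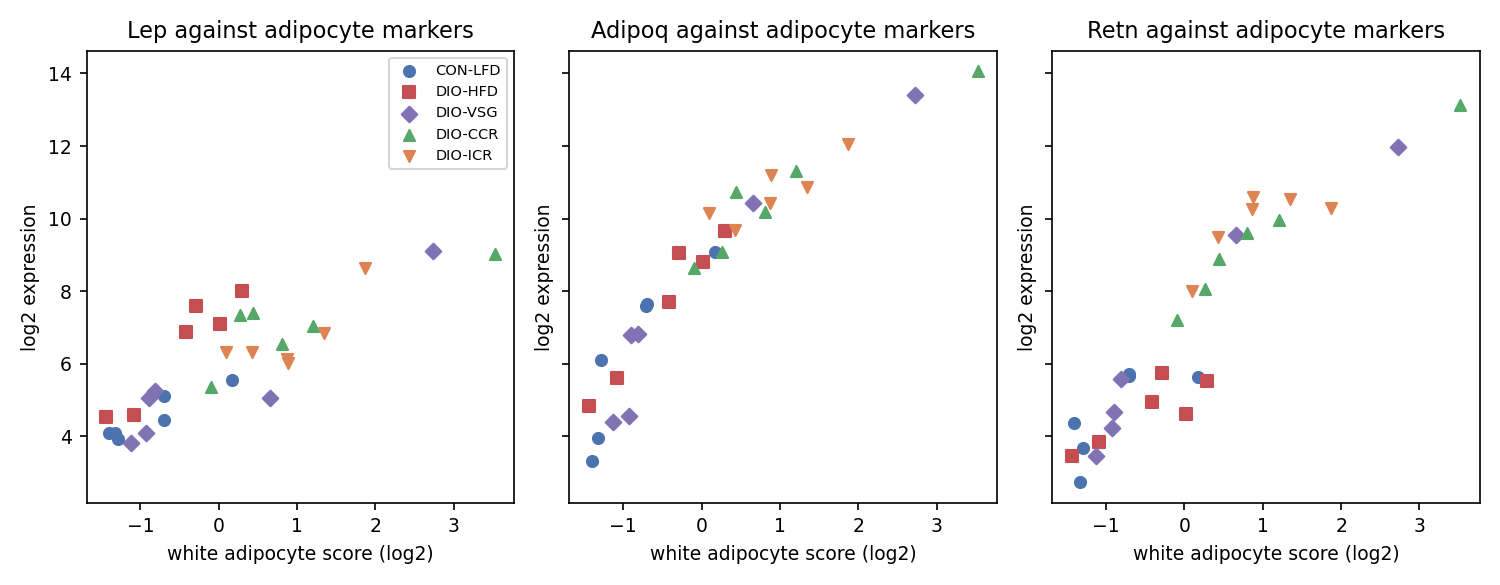
Log2 expression of each adipokine against the white adipocyte score, the mean log2 deviation of 17 marker genes, with 1 point per tumor and groups by color and shape. Adipoq follows 1 band over all groups, and 4 DIO-HFD tumors lie high in Lep for their score. In Retn the DIO-HFD tumors lie low for their score, with the CON-LFD tumors near them (0.63 ± 0.44 above DIO-HFD at equal score, limma adjusted p = 0.612).

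With the score in the fit, Retn remained higher in DIO-ICR than in DIO-HFD tumors, and the differences of Adipoq from DIO-HFD lay between -0.73 and 0.29. Those in CON-LFD, DIO-CCR and DIO-ICR were smaller in size than without the score, and that in DIO-VSG went from 0.13 to -0.73. The F-test at equal score gave an adjusted p of 0.727 for Adipoq and 0.0324 for Retn, where 0.733% of genes passed. Retn was 6.57-fold higher in DIO-ICR than in DIO-HFD tumors at equal score (2.72 ± 0.48, adjusted p = 0.0235, where 0.0564% of genes passed). The scores of DIO-HFD (-1.44 to 0.29) and DIO-ICR tumors (0.09 to 1.87) overlapped little. A difference at equal score thus rests on 1 straight slope shared by all groups and not on matched tumors. In DIO-CCR the difference was 2.14 ± 0.49 (adjusted p = 0.0638, where 0.0923% of genes passed), in DIO-VSG 1.14 ± 0.44 (adjusted p = 0.372, 0.179% of genes) and in CON-LFD 0.63 ± 0.44 (adjusted p = 0.612, 1.09% of genes). For Lep the differences from DIO-HFD were negative in all 4 groups at equal score, at -1.48 ± 0.38 in CON-LFD (adjusted p = 0.0548), -1.52 ± 0.38 in DIO-VSG (0.115), -1.01 ± 0.43 in DIO-CCR (0.351) and -1.29 ± 0.42 in DIO-ICR (0.267). None of these passed, and the 4 share the DIO-HFD tumors. The F-test of Lep at equal score gave an adjusted p of 0.104. The score and the adipokines come from the same arrays, and the part of adipocyte content in the unadjusted differences was measured only through these markers.

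**Figure D3:**
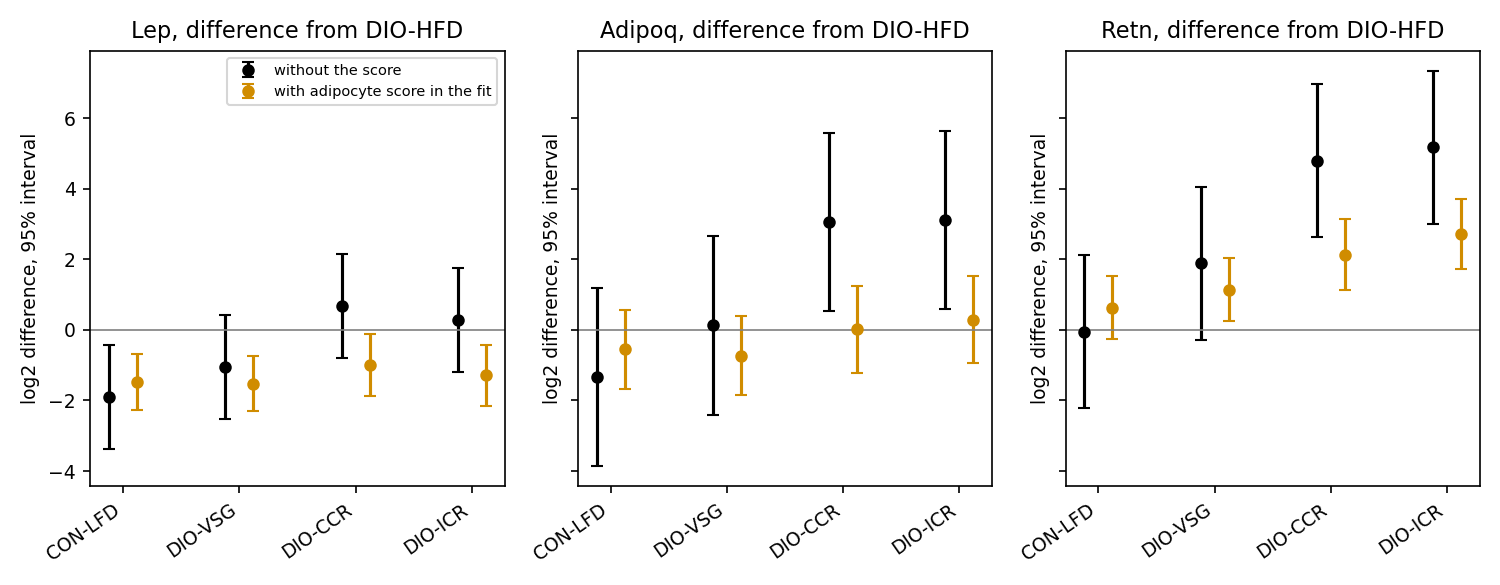
Log2 difference of CON-LFD, DIO-VSG, DIO-CCR and DIO-ICR from DIO-HFD for each adipokine, with its 95% interval from limma, without (black) and with (orange) the adipocyte score in the fit. For Retn in DIO-ICR the difference is 5.18 without and 2.72 with the score, for Adipoq 3.12 and 0.29, and for Lep 0.27 and -1.29.

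The balance of the 3 transcripts within a tumor was described through differences of their log2 values, which compare groups but not probe sets, so that 0 has no meaning of its own. Lep minus Adipoq was -1.16 ± 0.55 in DIO-HFD, with values from -1.71 to -0.31, against -4.01 ± 0.68 in DIO-ICR (-5.19 to -3.35) and -3.55 ± 1.10 in DIO-CCR (-5.05 to -1.76). Each restricted tumor thus had less Lep for its Adipoq than each DIO-HFD tumor, as was so for 1.25% of all genes set against Adipoq in DIO-CCR and for 49% in DIO-ICR. CON-LFD (-1.75 ± 1.78, from -3.53 to 0.77) and DIO-VSG (-2.34 ± 2.03, from -5.38 to -0.47) spanned both.

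Lep minus Retn was 1.76 ± 0.71 in DIO-HFD, from 0.76 to 2.49. It was -1.18 ± 2.02 in DIO-VSG (-4.49 to 0.39), -2.36 ± 1.23 in DIO-CCR (-4.11 to -0.74) and -3.15 ± 1.25 in DIO-ICR (-4.59 to -1.65). Every tumor of the 3 weight-loss groups lay below every DIO-HFD tumor in this difference, and CON-LFD, at -0.10 ± 0.87 (-1.26 to 1.35), overlapped DIO-HFD. For the restricted groups this separation comes with Retn alone, since 98.7% of all genes minus Retn lay lower in every DIO-CCR tumor and 99.9% in every DIO-ICR tumor, whereas for DIO-VSG it held for 3 of 19504 genes (0.0154%), Lep among them. Retn minus Adipoq was -2.93 ± 1.18 in DIO-HFD and -1.65 ± 1.51 in CON-LFD, and it was -1.16 ± 0.60 in DIO-VSG, -1.19 ± 0.45 in DIO-CCR and -0.86 ± 0.87 in DIO-ICR (SD, n = 6 each). The groups overlapped in the latter difference.

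**Figure D4:**
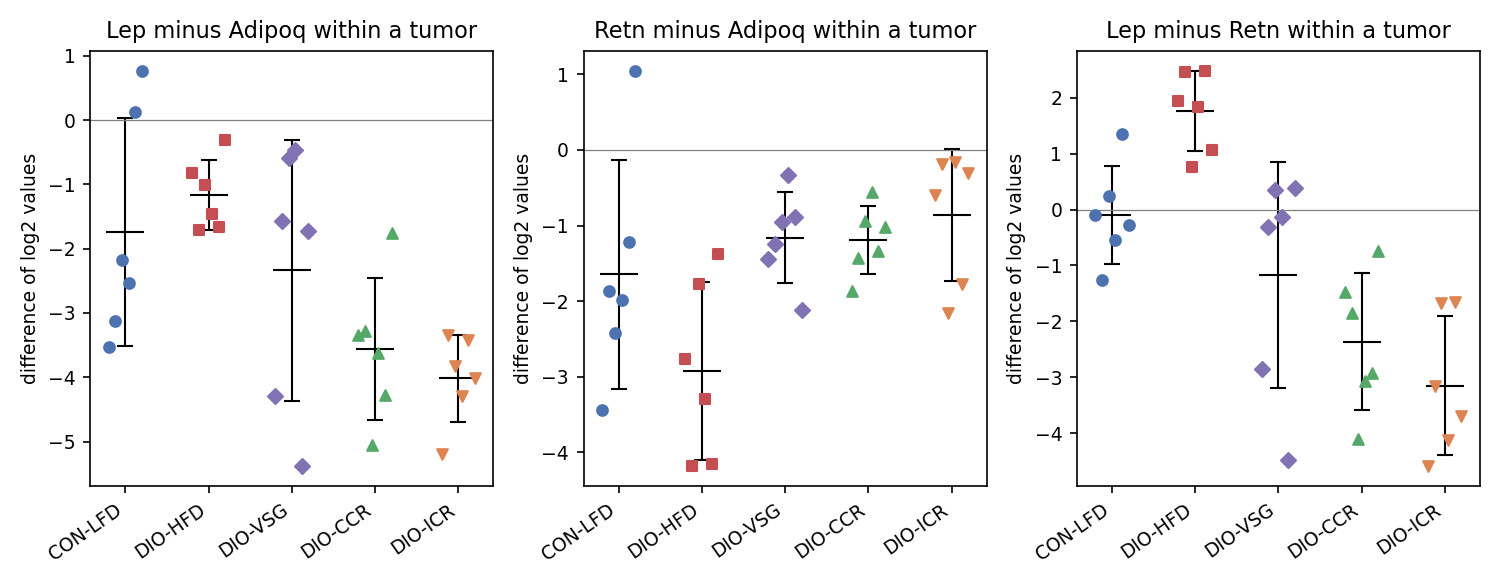
Differences of log2 values within each tumor, by group, for Lep minus Adipoq, Retn minus Adipoq and Lep minus Retn; points are tumors, the horizontal bar is the group mean and the whiskers are 1 SD (n = 6). In the third panel the DIO-HFD tumors lie between 0.76 and 2.49 and all tumors of DIO-VSG, DIO-CCR and DIO-ICR at 0.39 or lower.

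Tumors high in 1 adipokine tended to be high in the others. Over the 30 tumors Lep correlated with Adipoq with Pearson's r = 0.853 and Spearman's rho = 0.80 (permutation p = 2e-05 for both, the smallest that 100000 resamples can give, and 3e-05 after Benjamini-Hochberg adjustment over the 3 pairs). Without DIO-VSG 1 and DIO-CCR 3, the tumors farthest from the median of Lep, r was 0.802. Because Retn fell into separate ranges, its correlations were taken on deviations from the group means, which gave r = 0.899 and rho = 0.901 with Adipoq (permutation p = 2e-05 for both, adjusted 2e-05 and 3e-05) and r = 0.752 and rho = 0.651 with Lep (permutation p = 2e-05 and 0.00018, adjusted likewise 2e-05 and 0.00018). On the same deviations Lep and Adipoq had r = 0.844. Among the 16 tumors below the gap in Retn, r between Adipoq and Retn was 0.785, and among the 14 above it 0.913 (rho 0.759 and 0.868). Between Lep and Retn r was 0.597 below and 0.630 above the gap (rho 0.664 and 0.437). For Lep and Adipoq it was 0.833 and 0.781 (rho 0.876 and 0.596). Deviations from group means do not remove the gap in DIO-VSG, which had 4 tumors below it and 2 above it.

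Within single groups of 6 tumors, r between Adipoq and Retn was 0.777 in CON-LFD, 0.927 in DIO-HFD, 0.986 in DIO-VSG, 0.976 in DIO-CCR and 0.562 in DIO-ICR. Between Lep and Adipoq it was 0.809, 0.985, 0.889, 0.856 and 0.735 in the same order of groups, and between Lep and Retn 0.753, 0.948, 0.856, 0.842 and 0.208. The lowest r of each pair was thus in DIO-ICR, where the SD of Adipoq was also the smallest (0.84). By rho, the lowest group for Adipoq and Retn was instead CON-LFD (0.60, against 0.771 in DIO-ICR). In DIO-ICR rho was 0.20 between Lep and Adipoq and -0.086 between Lep and Retn. Of these 15 correlations, Adipoq with Retn in DIO-VSG and Lep with Adipoq in DIO-HFD passed an exact permutation test after adjustment over the 15 (adjusted p = 0.0208 each, from p = 0.00278 over 720 pairings). Whether the correlations differ between groups was not tested.

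**Figure D5:**
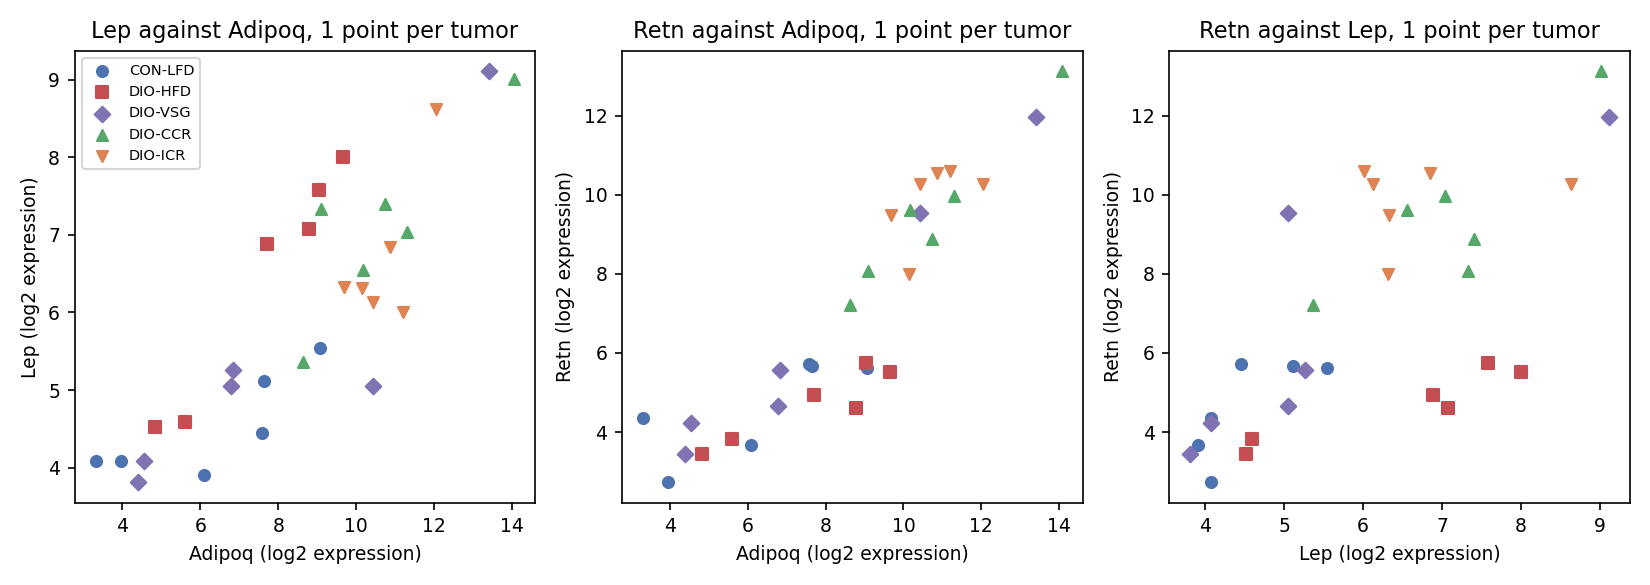
Log2 expression of Lep against Adipoq, Retn against Adipoq and Retn against Lep, with 1 point per tumor and groups by color and shape. Lep and Adipoq have r = 0.853 over the 30 tumors, and in the third panel the DIO-HFD tumors stay at or below 5.74 in Retn up to a Lep value of 8.0.

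The genes most like each member, by Pearson's r over the 30 tumors and all 5 groups, included 5 of the white adipocyte markers among 10 genes for Lep and 4 each for Adipoq and Retn; this r includes differences between groups. For Adipoq the 10 closest were Cidec (0.975), the fatty acid binding protein gene Fabp4 (0.963), the lipid droplet coat gene Plin1 (0.945), the growth hormone receptor gene Ghr (0.941), the amylase gene Amy1 (0.918), Retn (0.915), Car3 (0.906), the cysteine dioxygenase gene Cdo1 (0.899), Sncg (0.895) and Tmem45b (0.881). For Retn they were Cdo1 (0.959), Adipoq (0.915), Amy1 (0.914), Plin1 (0.911), Cyp2e1 (0.910), B3galt2 (0.901), Thrsp (0.898), Cidec (0.898), Fabp4 (0.890) and Ghr (0.889). For Lep they were the complement inhibitor gene Cd59a (0.898), Cidec (0.882), Fabp4 (0.864), Plin1 (0.859), the fatty acid transporter gene Cd36 (0.856), Tmem45b (0.854), Adipoq (0.853), Itih5 (0.852), Ghr (0.849) and Trarg1 (0.843). Cidec, Fabp4, Plin1 and Ghr stood in all 3 lists of 10. Adipoq and Retn ranked 6 and 2 in each other's lists. Lep ranked 15 of 19504 genes for Adipoq and 116 for Retn, and Retn ranked 85 for Lep. Over all genes the median r with Lep was 0.0040.

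None of the receptors of the 3 hormones passed against DIO-HFD in any group. Lepr had group means of 4.72 ± 0.79 in CON-LFD, 5.04 ± 0.60 in DIO-HFD, 5.86 ± 1.42 in DIO-VSG, 5.05 ± 0.64 in DIO-CCR and 5.21 ± 0.48 in DIO-ICR (F-test adjusted p = 0.558). Of 11 genes of leptin signalling, 0 passed against DIO-HFD in any of the 4 groups. Over all genes 0.995% passed in CON-LFD, 0.154% in DIO-VSG, 0.354% in DIO-CCR and 0.461% in DIO-ICR. At these shares, 0 calls in a short list do not set it apart from all genes. The smallest F-test p was that of Jak2, the kinase bound to the receptor, with differences from DIO-HFD of 0.36 to 0.51 in the 4 groups (F-test adjusted p = 0.227). Stat3 (0.356), Irs2 (0.357) and Socs3, the feedback inhibitor of the receptor (0.487), came next.

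Adipor1, with group means between 13.79 and 13.87 (F-test adjusted p = 0.974), and Adipor2, between 12.54 and 12.92 (0.345), spanned less than 0.4 log2 units. Cdh13, which encodes T-cadherin, a surface protein that binds multimers of adiponectin, had means of 14.36 in CON-LFD, 14.22 in DIO-HFD, 14.05 in DIO-VSG, 14.12 in DIO-CCR and 13.86 in DIO-ICR (F-test adjusted p = 0.107). It was lower in DIO-ICR than in CON-LFD tumors (-0.50, adjusted p = 0.0337), and its r over the tumors was -0.71 with Retn and -0.61 with Adipoq. Of 9 measured genes of adiponectin signalling, 0 passed against DIO-HFD, as did 0 of 8 paralogs of adiponectin, where C1qtnf3 had the smallest F-test p (-1.65 in DIO-CCR and -1.55 in DIO-ICR, F-test adjusted p = 0.149). Of 6 genes that fold and secrete adiponectin, 0 passed (Ero1a, F-test adjusted p = 0.139). Against DIO-HFD 0.154% to 0.995% of all genes passed, so these counts do not set the short lists apart from all genes.

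The candidate resistin receptors Tlr4 (F-test adjusted p = 0.122), Cap1 (0.850) and Ror1 (0.920) did not pass. The other members of the resistin family differed from one another, and Retnla, like Retn, had its highest means in the restricted groups. Retnla, a product of alternatively activated macrophages and of adipose tissue, had means of 4.23 ± 1.19 in CON-LFD, 4.77 ± 1.74 in DIO-HFD, 4.46 ± 2.18 in DIO-VSG, 6.68 ± 2.67 in DIO-CCR and 8.22 ± 1.14 in DIO-ICR. It was higher in DIO-ICR than in CON-LFD (3.99, adjusted p = 0.0433), and its difference of 3.45 ± 1.02 from DIO-HFD did not pass (adjusted p = 0.147). The r of Retnla was 0.76 with Retn, 0.77 with Adipoq and 0.73 with Lep. Retnlg, a product of neutrophils, was instead higher than in DIO-HFD in CON-LFD (3.38 ± 0.74, adjusted p = 0.0199) and DIO-VSG tumors (3.86 ± 0.74, adjusted p = 0.0291) and close to it in DIO-CCR (0.36) and DIO-ICR (-0.04). Its r with Retn was -0.28, and the neutrophil score was 0.81 in CON-LFD, -0.66 in DIO-HFD, 0.84 in DIO-VSG, -0.08 in DIO-CCR and -0.52 in DIO-ICR. Retnlb was at 2.92 or lower in every group mean.

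Of 14 measured regulators of adipokine genes, 1 rose against DIO-HFD in DIO-ICR and 1 in CON-LFD, where 0.461% and 0.995% of all genes passed. Pparg, the nuclear receptor that drives fat cell genes and is also made by macrophages, had means of 8.03 ± 0.87 in CON-LFD, 7.91 ± 0.32 in DIO-HFD, 8.72 ± 0.56 in DIO-VSG, 9.07 ± 0.36 in DIO-CCR and 9.25 ± 0.54 in DIO-ICR. It rose by 1.33 ± 0.31 in DIO-ICR (adjusted p = 0.0446), with 1.16 ± 0.31 in DIO-CCR (adjusted p = 0.0893), and its r was 0.80 with Retn, 0.62 with Adipoq and 0.48 with Lep. Cebpd, an early factor of fat cell differentiation that inflammation also induces, rose in CON-LFD (2.11 ± 0.44, adjusted p = 0.0149).

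Of 18 measured other adipokine genes, 1 passed against DIO-HFD, in CON-LFD only, where 0.995% of all genes passed. This was Lcn2, which neutrophils and epithelia also make, with means of 12.86 ± 1.83 in CON-LFD, 8.89 ± 0.86 in DIO-HFD, 11.83 ± 1.12 in DIO-VSG, 10.50 ± 1.28 in DIO-CCR and 10.04 ± 1.58 in DIO-ICR (3.96 ± 0.75 in CON-LFD, adjusted p = 0.00699). Apln, the apelin gene, had differences of -0.90 in DIO-CCR and -1.21 in DIO-ICR that did not pass (F-test adjusted p = 0.0859). Metrnl (0.165) and Il6 (0.217) had the next smallest F-test p. Over these 18 genes the median difference from DIO-HFD was 0.012 in DIO-CCR and -0.032 in DIO-ICR.

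Markers of other cells of fat tissue and tumor were read as well. Against DIO-HFD, 0.995% of all genes passed in CON-LFD, 0.154% in DIO-VSG, 0.354% in DIO-CCR and 0.461% in DIO-ICR. Of 11 neutrophil markers, 5 rose in CON-LFD against DIO-HFD, namely the calprotectin genes S100a9 (3.64, adjusted p = 0.00635) and S100a8 (2.57, adjusted p = 0.0329), the histidine decarboxylase gene Hdc (2.24, adjusted p = 0.00339), the collagenase gene Mmp8 (1.89, adjusted p = 0.0223) and the decoy interleukin 1 receptor gene Il1r2 (1.88, adjusted p = 0.0165). S100a9 also rose in DIO-VSG (3.48, adjusted p = 0.0292), and 0 of the 11 passed in DIO-CCR or DIO-ICR. Of 6 tumor epithelium markers, the keratin gene Krt8 fell in CON-LFD (-2.37, adjusted p = 0.0296) and 0 others passed. In that comparison 5 of the 6 had positive differences (median 0.06), so Krt8 does not stand for the list. Of 8 brown and beige adipocyte markers, Ppargc1b rose in DIO-CCR (0.96, adjusted p = 0.0448) and DIO-ICR (0.92, adjusted p = 0.0473) and the deiodinase gene Dio2 in DIO-CCR (1.33, adjusted p = 0.0372), while Ucp1, the defining gene of brown fat, had group means of 2.21 to 2.82, near the bottom of the scale. Of the 8 brown and beige markers, 6 had positive differences from DIO-HFD in DIO-CCR (median 0.28) and 5 in DIO-ICR (median 0.19). Of 9 adipose stromal cell markers 0 passed in any comparison with DIO-HFD. Of 11 macrophage and monocyte markers, Ccr2 rose in DIO-VSG (1.18, adjusted p = 0.0483) and DIO-ICR (1.18, adjusted p = 0.0301). Among all 11, 6 had positive differences in DIO-VSG (median 0.03) and 8 in DIO-ICR (median 0.50). DIO-VSG 1, with the highest Lep value of the series, also had the highest lymph node (5.19) and tumor epithelium scores (2.91). The part of these cells in the differences of the adipokines was not tested beyond the fits without the lymph node or muscle tumors.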

How the data were processed

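Tumor RNA was labelled with a whole-transcript kit and hybridized to Clariom S arrays. The authors deposited log2 expression values after signal space transformation and robust multi-array averaging, 1 column per tumor. Arrays have no read depth, and their number limits the precision. Groups came from the labels, the labels give no batch, and no file columns were left aside. Of 22206 probe sets 19572 carried 1 symbol and 2634 none, which gave 19505 genes with the brightest probe set per symbol. A linear model with 1 mean per group over all 30 arrays was fitted in limma 3.58.1 (R 4.3.3) with empirical Bayes moderation, and p-values were Benjamini-Hochberg adjusted over all genes per comparison, with a threshold of 0.05. A score was the mean deviation of its marker genes from their medians over the arrays, and the adipocyte score was also entered as a covariate. Correlations across tumors were tested with permutation tests in scipy 1.17.1. The fits were tested on simulated data.

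Besides the 3 adipokines, the genes named were receptors, up to 4 genes of each list with the smallest F-test p, those that passed against DIO-HFD, and the 10 genes most correlated with each member; Retnla, Retnlg and Retnlb were named as the whole family. Members and lists were chosen with earlier results of these data known. Some listed genes were not analysed here. Alternatives were quantile normalization, array centring on the median, all probe sets, a filter that left out the 30% dimmest genes, trended robust moderation, array weights, fits of 12 arrays, the adipocyte covariate, fits without lymph node or muscle tumors, exact permutation tests, and fits without each tumor. Fits without the 2 tumors with the highest adipocyte score and with Adipoq as covariate were chosen after seeing the data.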

Additional observations from a re-analysis of the deposited data

Results flagged for a closer look

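In 30 sets of 6 tumors (5 groups, 6 measures), the highest or lowest tumor was set against its nearest neighbor by Dixon's ratio, and chance alone picks out about 1 in 20 sets. Lep in DIO-VSG 1 was 9.11, where the next DIO-VSG tumor had 5.26. Lep in DIO-ICR 5 was 8.63, where the next DIO-ICR tumor had 6.85. The white adipocyte score in DIO-CCR 3 was 3.52, where the next DIO-CCR tumor had 1.21.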

How the results depend on the processing

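No paired analysis was possible because each tumor came from a different mouse and the replicate numbers only name tumors. Retn in DIO-ICR against DIO-HFD kept its call under the 13 alternatives that are not fits without single tumors (adjusted p = 7.82e-04 to 0.0405, with the exact permutation test unadjusted). It lost the call in 7 of the 12 fits without single tumors (adjusted p up to 0.0826). Retn in DIO-CCR against DIO-HFD did not pass with trended robust moderation (4.80, adjusted p = 0.0505), the adipocyte covariate (2.14) or the Adipoq covariate (2.43). Its call was also lost in 10 of the 12 fits without single tumors. Lep turned negative against DIO-HFD with the adipocyte covariate (-1.01 in DIO-CCR, -1.29 in DIO-ICR) and the Adipoq covariate (-0.83, -1.26), and with the latter also in DIO-ICR against DIO-VSG (-0.15) and CON-LFD (-0.0021). Retn in CON-LFD against DIO-HFD turned positive with array weights (0.021), the adipocyte covariate (0.63), the Adipoq covariate (0.98) and without lymph node (0.11) or muscle tumors (0.33). Adipoq in DIO-VSG against DIO-HFD turned negative with array weights (-0.63), the adipocyte covariate (-0.73), without lymph node tumors (-1.55) and without the 2 tumors of highest score (-1.01). Without lymph node tumors Retn in DIO-VSG was -0.037 against DIO-HFD and -0.15 against CON-LFD, and Adipoq -0.63 against CON-LFD. With the adipocyte covariate DIO-VSG against CON-LFD was -0.040 for Lep and -0.19 for Adipoq. Exact permutation tests, unadjusted, passed for Lep in CON-LFD (-1.91, p = 0.0281) and for Adipoq in DIO-CCR (3.06, p = 0.0173) and DIO-ICR (3.12, p = 0.00216, the smallest possible) against DIO-HFD. Without single tumors, differences from DIO-HFD ranged for Lep from -2.30 to -1.60 in CON-LFD, from -1.79 to -0.73 in DIO-VSG, from 0.29 to 1.02 in DIO-CCR, from -0.11 to 0.58 in DIO-ICR. They ranged for Adipoq from -1.89 to -0.74 in CON-LFD, from -1.01 to 0.79 in DIO-VSG, from 2.38 to 3.47 in DIO-CCR, from 2.56 to 3.53 in DIO-ICR. They ranged for Retn from -0.30 to 0.33 in CON-LFD, from 0.81 to 2.51 in DIO-VSG, from 4.07 to 5.25 in DIO-CCR, from 4.94 to 5.56 in DIO-ICR. Adipoq ranged from -0.35 to 0.74 and Retn from -0.068 to 1.11 in DIO-ICR against DIO-CCR. Against CON-LFD, Retn in DIO-ICR kept its call in all 12 such fits but lost it with the adipocyte covariate (2.08, adjusted p = 0.0938) and the Adipoq covariate (1.80, adjusted p = 0.195). Retn in DIO-CCR lost it with the same covariates (1.51 and 1.45) and in the fit of 12 arrays (adjusted p = 0.0559). Calls against CON-LFD were gained under 6 alternatives for Adipoq in DIO-ICR, 2 for Adipoq in DIO-CCR, 4 for Lep in DIO-ICR and 3 for Lep in DIO-CCR, each time including the fit without lymph node tumors (adjusted p = 0.0126, 0.0213, 0.0361 and 0.0250) and the exact permutation test, unadjusted. Over all genes, the number that passed against DIO-HFD was 194 in CON-LFD (374 with array weights), 30 in DIO-VSG (1 without lymph node tumors to 46 without the dimmest genes), 69 in DIO-CCR (18 with the adipocyte covariate or in the fit of 12 arrays, and over 1.5 times 69 with array weights or without the dimmest genes) and 90 in DIO-ICR (11 with either covariate to 216 without the 2 tumors of highest score). The cause of these changes was not tested.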
